A study of Mus musculus with 6 samples.

Results

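Myosins that do not assemble into filaments, as those of muscle do, are called unconventional, and 9 such genes of the mouse were followed here from the cochlea to the vestibule of the newborn inner ear: Myo6, Myo3a, Myo3b, Myo1c, Myo1d, Myo1e, Myo5a, Myo5b and Myo10. They were chosen by name, as unconventional myosins other than those of the Usher protein complex, and each symbol matched 1 of the 39179 Ensembl genes counted. They are 9 of 25 unconventional myosin genes in the count files, and the other 16, with Myo7a and Myo15 among them, were used for comparison. RNA was sequenced from the sensory epithelium of the cochlea, the hearing organ, in 3 libraries and from that of the vestibule, the balance organ, in 3 libraries. All animals were wild-type C57Bl/6J newborns (P0) of both sexes, and their tissue was pooled, with 20 ears from 10 mice giving the epithelia of each organ. The labels name no treatment and no targeted gene. Gene coordinates are those of GRCm38. The sources do not say whether the 3 libraries of a tissue came from separate pools, so the spread between them may be technical and the p-values measure only that spread.

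An unconventional myosin walks or pulls on actin filaments with a motor head, binds light chains such as calmodulin at its neck, and carries a cargo, a membrane or another protein with its tail. Hair cells, the sensory cells of both epithelia, are built around bundled actin in their stereocilia and a dense actin plate beneath them, and several myosins are needed there for hearing. Myo6 moves toward the minus end of actin, against the direction of the other classes, the class III myosins carry a kinase domain and travel to stereocilia tips, class I myosins link membranes to actin, class V myosins carry vesicles and organelles, and Myo10 moves along filopodia to their tips.

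Promoter windows of RefSeq (GRCm38.p6, from 250 bases before to 50 after a transcript start, 300 bases each) were given for 7 of the 9 genes. The windows of Myo6, Myo3a and Myo3b are shown because Myo6 had the highest level of the 9 genes in both tissues and because the class III genes, which are close relatives, had fold changes of opposite sign, with Myo3a past the test. Capitals mark each match on either strand to the GC box GGGCGG and to the CCAAT box.
Myo6 (chr9:80164784-80165083, plus strand): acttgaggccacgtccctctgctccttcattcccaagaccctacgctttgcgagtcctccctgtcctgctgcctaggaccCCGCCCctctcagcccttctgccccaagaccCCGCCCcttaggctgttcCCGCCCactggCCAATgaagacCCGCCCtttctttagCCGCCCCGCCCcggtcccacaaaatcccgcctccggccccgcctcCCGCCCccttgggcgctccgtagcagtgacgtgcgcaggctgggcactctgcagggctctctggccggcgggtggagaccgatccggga
Myo3a (chr2:22227253-22227552, plus strand): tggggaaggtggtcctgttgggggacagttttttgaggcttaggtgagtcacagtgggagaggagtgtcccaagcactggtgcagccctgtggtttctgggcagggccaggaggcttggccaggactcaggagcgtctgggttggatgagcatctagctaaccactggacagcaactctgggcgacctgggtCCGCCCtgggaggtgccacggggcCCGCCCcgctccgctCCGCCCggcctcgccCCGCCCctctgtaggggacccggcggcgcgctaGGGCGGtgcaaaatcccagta
Myo3b (chr2:70038876-70039175, plus strand): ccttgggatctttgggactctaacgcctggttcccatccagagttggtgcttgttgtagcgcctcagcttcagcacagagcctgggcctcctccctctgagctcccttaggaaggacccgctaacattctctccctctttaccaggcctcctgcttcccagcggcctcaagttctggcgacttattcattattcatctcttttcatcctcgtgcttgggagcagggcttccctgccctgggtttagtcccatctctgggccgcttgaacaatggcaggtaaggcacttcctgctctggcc
The Myo6 window was 68.3% G or C and held 22 CpG dinucleotides, 7 GC boxes, some of them overlapping each other, and 1 CCAAT box. The Myo3a window was 66.3% G or C, with 16 CpG and 5 GC boxes. The Myo3b window was 56.3% G or C, with 7 CpG, and matched none of the motifs searched, which also included TATAAA and the E-boxes CAGCTG and CAGATG. Among all 32851 windows the median was 52.7% G or C and 7 CpG, and GGGCGG was found in 35.7%, CCAAT in 37.4%, TATAAA in 13.6%, CAGCTG in 16.3% and CAGATG in 17.1%. These matches describe the letters of the window and were not tied to binding or to expression.

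Between 24464483 and 29225105 read pairs were counted on genes in the cochlear libraries and between 25476572 and 33664793 in the vestibular ones, and CPM are counts scaled to these totals, so that 1 CPM stood for 24.5 to 33.7 counts. All 9 genes were above 1 CPM in every library. For the difference between the tissues, the 14723 genes that reached 1 CPM in no fewer than 3 libraries entered edgeR's quasi-likelihood test with TMM factors, and a gene was called differentially expressed at a Benjamini-Hochberg adjusted p under 0.05. Fold changes are log2 values, vestibule minus cochlea, with their standard error (SE). The same test called 27.4% of all tested genes, 15.8% higher in the vestibule and 11.6% higher in the cochlea. Of the 9 myosins 3 were called: Myo1c was higher in the vestibule, and Myo3a and Myo5b were higher in the cochlea. On the plain CPM scale, without TMM factors, the tissues did not overlap for 6 of the 9 myosins, against 41.8% of all tested genes. The absolute log2 fold change of the 9 myosins had a median of 0.62, against 0.32 over all tested genes. The list was chosen with earlier results of these data known, so these comparisons with all genes are descriptions. Cochlear library 3 stood apart in skeletal muscle genes, with a summed level of 297 CPM over 8 markers where the other 5 libraries had 4.46 to 28.1 CPM, and of these markers 4 were tested and not called.

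**Figure D1:**
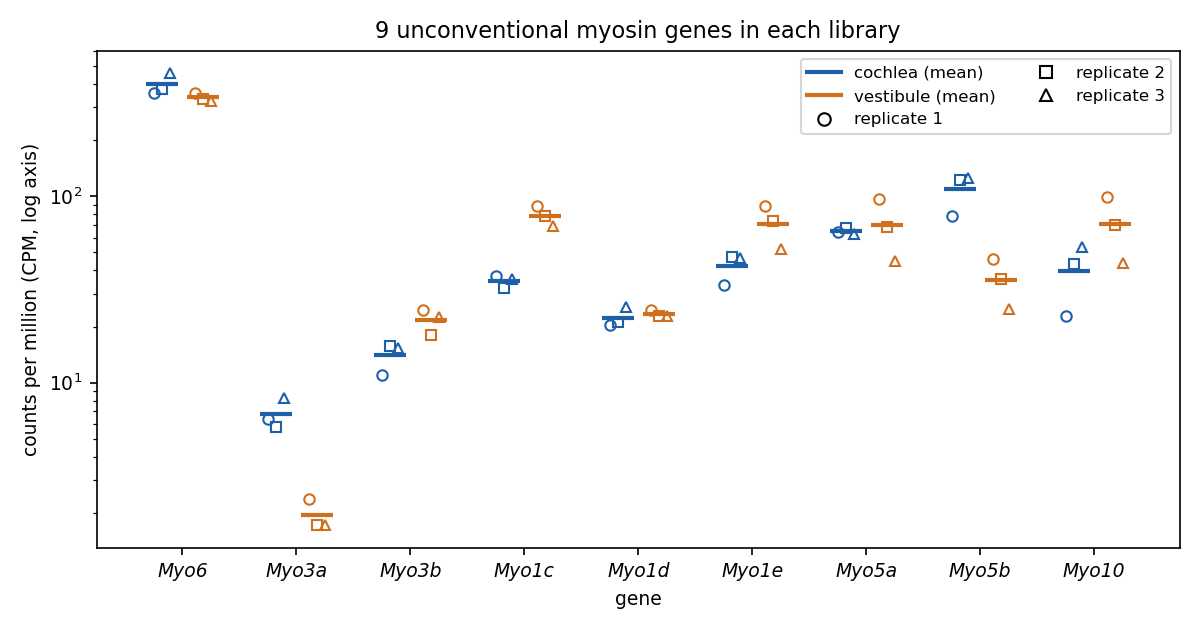
CPM (log axis) of each of the 9 myosin genes in the 3 cochlear and 3 vestibular libraries, with points for libraries and bars for the tissue mean. The vestibular points of Myo1c, between 69.4 and 88.7 CPM, lie above all cochlear ones, while those of Myo3a and Myo5b lie below.

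Myo6 (ENSMUSG00000033577, chr9:80165031-80311729, plus strand), the motor mutated in the deaf Snell's waltzer mouse, was the most abundant of the 9. It had 8823, 10913 and 13375 counts in the cochlear libraries 1 to 3 and 12109, 8595 and 8314 counts in the vestibular ones. On the CPM scale these were 361, 379 and 458 for the cochlea against 360, 335 and 326 for the vestibule, so the highest vestibular library came just under the lowest cochlear one. The log2 fold change was -0.35 (SE 0.13), or 1.27-fold higher in the cochlea, and edgeR's quasi-likelihood test did not call it (adjusted p = 0.0879).

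The sign of this difference was opposite to that of most hair cell markers. Of 12 hair cell genes other than myosins, 8 were called higher in the vestibule and 1 higher in the cochlea, and their summed level was 247 to 329 CPM in the cochlea and 850 to 1091 CPM in the vestibule, with every marker detected in every library. Divided by the geometric mean of these markers within the same library, Myo6 stood at 26.3, 23.8 and 24.9 in the cochlea and at 8.65, 8.88 and 9.14 in the vestibule. That is a log2 difference of -1.49, far outside the spread of the libraries, and the exact two-sided permutation test gave p = 0.1, the smallest that 3 against 3 libraries allow (0.125 after adjustment over the 10 ratios computed). The ratio rests on the marker list, in which single genes differ by tissue: Slc17a8, the vesicular glutamate transporter of inner hair cells, ranged from 6.18 to 9.85 CPM in the cochlea and from 102 to 120 CPM in the vestibule. In tissue of many cell types, fewer cells of a type and less RNA per cell cannot be told apart, here or in any comparison that follows.

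Myo7a, the Usher myosin of hair cells, gave a like reference. The CPM of Myo6 were 8.99, 6.70 and 5.23 times those of Myo7a in the cochlear libraries and 3.00, 3.22 and 4.43 times in the vestibular ones. The groups did not overlap, with a log2 difference of -0.96 and again the smallest exact permutation p of 0.1. Myo7a alone had 40.1, 56.5 and 87.5 CPM in the cochlea and 120, 104 and 73.7 CPM in the vestibule, which overlap (log2 fold change 0.57, SE 0.27, edgeR adjusted p = 0.157).

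Of 9 known adaptors and cargo proteins of Myo6, 3 were called by edgeR's quasi-likelihood test, all higher in the vestibule, and the median log2 fold change of the 9 was 0.43 (0.0048 over all tested genes). They were Otof (2.08), which acts in synaptic vesicle release of hair cells and is also 1 of the 12 hair cell markers, the endocytic adaptor Dab2 (1.94) and the autophagy receptor Optn (0.79), whose call was lost without cochlear library 2 or vestibular library 1. The remaining 6 genes, which include Gipc1 and Tom1, were not called. Of all tested genes 27.4% were called, 15.8% of them all being higher in the vestibule.

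The class III genes had fold changes of opposite sign. Myo3a (ENSMUSG00000025716, chr2:22227503-22618252, plus strand) had 156, 167 and 240 counts in the cochlea and 80, 44 and 44 counts in the vestibule. Its CPM of 6.38, 5.80 and 8.21 in the cochlea were all above the 2.38, 1.71 and 1.73 of the vestibule. It was 3.79-fold higher in the cochlea, with a log2 fold change of -1.92 (SE 0.23, edgeR adjusted p = 0.000388), the largest difference among the 9 genes, at the lowest level of them all. Leaving out each library in turn kept the log2 fold change between -2.05 and -1.78.

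Myo3b (ENSMUSG00000042064, chr2:70039126-70429198, plus strand), its close relative, had 268, 454 and 446 counts in the cochlea and 828, 460 and 576 counts in the vestibule. The CPM were 11.0, 15.8 and 15.3 against 24.6, 17.9 and 22.6, so the tissues did not overlap on this scale. Divided by the TMM factors of the test (0.921 in cochlear library 2 and 1.05 in vestibular library 2), the gap between these libraries closed. The log2 fold change of 0.51 (SE 0.20) was not called (edgeR adjusted p = 0.0942). Myo3b shares 70 exonic bases with Gm13631 on the same strand, a transcript with 14 to 46 counts, whereas the pseudogene Gm13340 within Myo3a, on the other strand with 72 to 111 counts, shares no exonic base with it. Whether reads were counted by strand is not stated.

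Set against each other in the same library, the class III genes stood apart between the tissues. Myo3a was at 0.582, 0.368 and 0.538 times the CPM of Myo3b in the cochlea and at 0.0966, 0.0957 and 0.0764 times in the vestibule. The ratio thus differed 5.46-fold (log2 -2.45, exact two-sided permutation p = 0.1, the smallest possible). Relative to the hair cell markers both genes were lower in the vestibule, by a log2 difference of -3.08 for Myo3a and -0.63 for Myo3b, without overlap of the tissues and with the same exact p of 0.1.

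Myo3a and Myo3b carry the actin bundling proteins of the espin family to stereocilia tips and bind Morn4. Of these 3 partner genes, Espn was called higher in the vestibule (log2 fold change 1.37) and Morn4 higher in the cochlea (-0.65) by edgeR's quasi-likelihood test, and Espnl was not called (0.46). Espn had 24.5, 35.5 and 37.5 CPM in the cochlea and 85.1, 97.2 and 91.7 CPM in the vestibule. Morn4 had 46.7, 43.8 and 46.5 CPM in the cochlea and 27.8, 33.4 and 33.5 CPM in the vestibule. Espn was therefore high in the tissue where Myo3a was low, and Morn4 high where Myo3a was high.

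**Figure D2:**
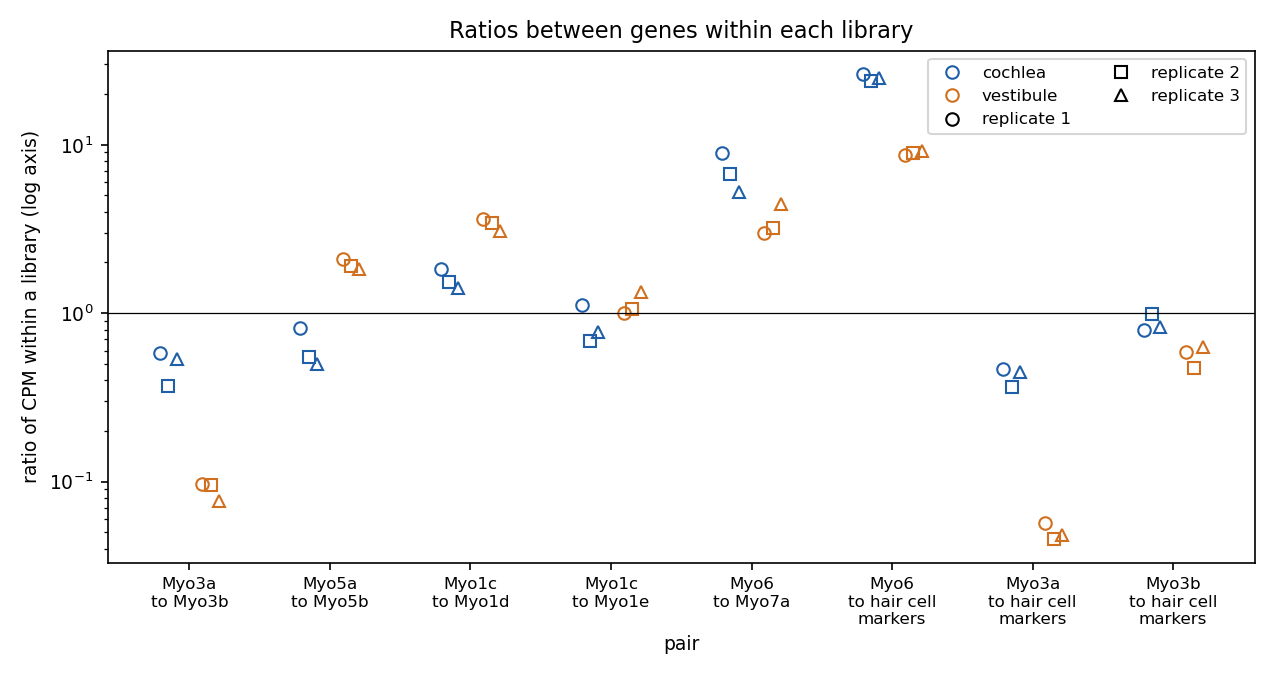
Ratio of CPM of gene pairs within each library (log axis), with 1 marker per library, blue for the cochlea and orange for the vestibule, for 8 of the 10 pairs. Myo3a to Myo3b lies at 0.368 to 0.582 in the cochlea and at 0.0764 to 0.0966 in the vestibule, whereas Myo1c to Myo1e overlaps.

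Of the 3 class I genes Myo1c was the one called. Myo1c (ENSMUSG00000017774, chr11:75650504-75673910, plus strand), which serves in the adaptation of hair cell transduction and in vesicle delivery in many other cells, had 915, 927 and 1047 counts in the cochlea and 2987, 2009 and 1768 counts in the vestibule. In CPM, 37.4, 32.2 and 35.8 stood against 88.7, 78.2 and 69.4, and the lowest vestibular library was well above the highest cochlear one. The log2 fold change was 1.04 (SE 0.12, edgeR adjusted p = 0.000327), or 2.06-fold.

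Myo1e (ENSMUSG00000032220, chr9:70207350-70399766, plus strand), a motor of endocytosis and of kidney podocytes, had 821, 1357 and 1356 counts in the cochlea and 2970, 1895 and 1325 counts in the vestibule. Its CPM of 33.6, 47.1 and 46.4 lay below the 88.2, 73.8 and 52.0 of the vestibule, with a narrow gap between the tissues. The log2 fold change of 0.62 (SE 0.20) was not called (edgeR adjusted p = 0.0522). Myo1d (ENSMUSG00000035441, chr11:80482126-80780025, minus strand), known for its part in left-right asymmetry, had 20.4, 21.1 and 25.5 CPM in the cochlea and 24.4, 22.9 and 22.6 CPM in the vestibule, which overlap. Its counts ran from 498 to 823 over the 6 libraries, and the log2 fold change was -0.06 (SE 0.14, edgeR adjusted p = 0.795).

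The balance among the class I genes differed accordingly. Myo1c had 1.84, 1.52 and 1.41 times the CPM of Myo1d in the cochlea and 3.63, 3.42 and 3.06 times in the vestibule, with no overlap (log2 difference 1.09, exact two-sided permutation p = 0.1, the smallest possible). Myo1d to Myo1e was lower in the vestibule by a log2 difference of -0.67, also without overlap. Myo1c to Myo1e, at 0.683 to 1.11 in the cochlea and 1.01 to 1.33 in the vestibule, overlapped (exact permutation p = 0.3).

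Markers of several cell types were higher in the vestibule along with Myo1c, among them the hair cell list above. Markers of macrophages were called higher in the vestibule in 5 of 5 cases, with a summed level of 43.2 to 56.9 CPM in the cochlea and 168 to 197 CPM in the vestibule. Aif1 of that list, and Tyrp1 and Mlana of the melanocyte list, met the filter on low counts only through the vestibule, so their calls are counted as descriptions. Those of endothelium were called in 4 of 5 cases (64.4 to 106 against 349 to 502 CPM), and those of melanocytes in 6 of 6 (40.7 to 65.1 against 295 to 352 CPM). Of the mesenchymal markers 3 of 6 were called higher in the vestibule and 1 higher in the cochlea, and of the Schwann cell markers 2 of 6 were called higher in the vestibule. Every gene of these lists had counts in both tissues, and their part in the difference of Myo1c was not tested.

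The class V genes parted as well. Myo5b (ENSMUSG00000025885, chr18:74440936-74771493, plus strand), which with Rab11 returns endosomal membrane to the surface of epithelial cells, had 1930, 3513 and 3689 counts in the cochlea and 1557, 923 and 632 counts in the vestibule. The CPM were 78.9, 122 and 126 in the cochlea against 46.3, 35.9 and 24.8 in the vestibule, and the groups were apart although each spread widely. The difference was 3.35-fold in favour of the cochlea, a log2 fold change of -1.75 (SE 0.25, edgeR adjusted p = 0.000923).

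Myo5a (ENSMUSG00000034593, chr9:75071015-75223688, plus strand), the pigment granule and neuronal transport motor lost in dilute mice, had 1583, 1940 and 1838 counts in the cochlea and 3270, 1759 and 1150 counts in the vestibule. Its CPM of 64.7, 67.4 and 62.9 were close together in the cochlea, while the vestibular values of 97.1, 68.5 and 45.1 surrounded them. The log2 fold change was -0.02 (SE 0.22, edgeR adjusted p = 0.952), and its sign depended on the scaling and on single libraries. Myo5a was at 0.820, 0.552 and 0.498 times the CPM of Myo5b in the cochlea and at 2.10, 1.91 and 1.82 times in the vestibule. The order of these paralogues was therefore opposite in the tissues in all 6 libraries (log2 difference 1.67, exact two-sided permutation p = 0.1, the smallest possible).

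Of 13 class V partners, 2 were called higher in the vestibule and 3 higher in the cochlea by edgeR's quasi-likelihood test. Their median log2 fold change was -0.13. Over all tested genes the same test called 15.8% higher in the vestibule and 11.6% higher in the cochlea. Mlph (2.64), which joins Myo5a to Rab27a on melanosomes, and Myrip (0.77) were higher in the vestibule. Spire2 (-2.07), an actin nucleator that works with class V myosins on vesicles, Rab3a (-0.94) and Rab27a (-0.66) were higher in the cochlea. The call of Rab3a, whose libraries overlap, and that of Myrip were lost without cochlear library 1 or 2 or vestibular library 1 or 2, and that of Rab27a without cochlear library 1 or any of the vestibular libraries. With library sizes alone in place of TMM neither Rab3a nor Rab27a was called. Spire2 ranged from 54.1 to 66.2 CPM in the cochlea and from 12.6 to 17.3 CPM in the vestibule. Mlph met the filter on low counts only through the vestibule, with 0.777 to 1.88 CPM in the cochlea and 7.85 to 11.7 CPM in the vestibule, so its call is a description. The melanocyte markers given above were higher in the same tissue as Mlph, and their part was not tested.

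Of 11 supporting cell genes 7 were called higher in the cochlea, as Myo3a and Myo5b were, and 1 higher in the vestibule. The summed level of the list overlapped, at 2180 to 2848 CPM in the cochlea and 2585 to 2969 CPM in the vestibule, and its direction turned on Otog, the gene called higher in the vestibule. Otog had 663 to 1184 CPM in the cochlea and 1895 to 2345 CPM in the vestibule, and the other 10 genes summed to 1518 to 1776 CPM in the cochlea and 624 to 690 CPM in the vestibule. Of 8 neuronal genes 4 were called higher in the cochlea (172 to 553 against 107 to 326 CPM, overlapping), and Prph among them met the filter only through the cochlea. Both lists were detected in every library, and their part in the differences of Myo3a and Myo5b was not tested.

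Myo10 (ENSMUSG00000022272, chr15:25622525-25813673, plus strand), the filopodial motor, varied more within a tissue than any other of the 9 genes. It had 555, 1253 and 1561 counts in the cochlea and 3350, 1813 and 1121 counts in the vestibule. The CPM of 22.7, 43.5 and 53.4 in the cochlea against 99.5, 70.6 and 44.0 in the vestibule overlapped, and the log2 fold change of 0.70 (SE 0.34) was not called (edgeR adjusted p = 0.162). RefSeq gives Myo10 2 transcript starts with separate promoter windows, and counts per gene do not tell their transcripts apart. Relative to the hair cell markers Myo10 overlapped between the tissues (log2 difference -0.42, exact permutation p = 0.3). With a library left out this difference ran from -0.67 without cochlear library 1 to -0.16 without vestibular library 3, and the fold change of Myo10 from 0.41 without cochlear library 1 to 0.95 without vestibular library 3. Of 7 cargo and partner genes of Myo10 the netrin receptor Neo1 was called and the other 6 were not (edgeR, log2 fold change -0.43, higher in the cochlea). The call of Neo1 was lost with each of the 6 libraries left out in turn and with library sizes alone in place of TMM.

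**Figure D3:**
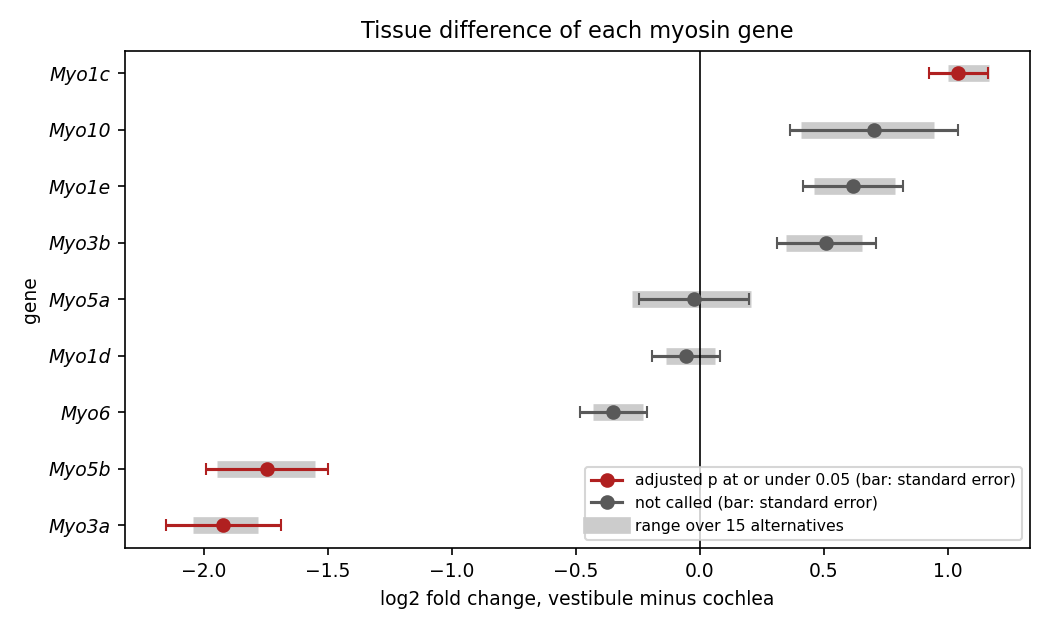
Log2 fold change (vestibule minus cochlea) of the 9 myosins, with bars for the SE, grey bands for the range over 15 alternatives, and red for the genes called by edgeR's quasi-likelihood test. Myo1c at 1.04, Myo5b at -1.75 and Myo3a at -1.92 are red, and the bands of Myo5a and Myo1d cross 0.

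Levels of different genes were compared per length, as RPKM (reads divided by gene length and library size) from the deposited log2 matrix. In the cochlea Myo6 came first with 33.1 ± 4.28 RPKM (SD, n = 3), followed by Myo5b (11.2 ± 2.69), Myo1e (8.58 ± 1.55), Myo1c (5.35 ± 0.407), Myo5a (4.40 ± 0.151), Myo10 (3.95 ± 1.55), Myo1d (3.46 ± 0.429), Myo3b (1.99 ± 0.376) and Myo3a (0.858 ± 0.159). The ranges of the libraries overlapped for the neighbours Myo5b and Myo1e, Myo5a and Myo10, and Myo10 and Myo1d. Within a library, Myo5b was above Myo1e in 3 of 3, whereas the other two pairs kept their order in 2 of 3 and did not differ beyond their spread. In the vestibule, ordered by mean log2 RPKM, Myo6 (28.2 ± 1.44 RPKM, SD, n = 3) was followed by Myo1e (14.5 ± 3.70), Myo1c (11.99 ± 1.47), Myo10 (7.07 ± 2.75), Myo5a (4.76 ± 1.76), Myo1d (3.62 ± 0.153), Myo5b (3.66 ± 1.10), Myo3b (3.09 ± 0.489) and Myo3a (0.246 ± 0.0478). There the ranges of Myo1e and Myo1c overlapped, as did those of each neighbouring pair from Myo10 down to Myo3b. Of these 5 pairs, Myo10 was above Myo5a in 3 of 3 libraries, and the others kept their order in 1 or 2 of 3 and did not differ beyond their spread.

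Myo5b was thus second in the cochlea and among the lower genes in the vestibule, where its place next to Myo1d was not settled, and Myo6 and Myo3a held the ends of the order in both tissues. As a share of the summed RPKM of the 9 genes, Myo6 took 45.5% ± 2.54 in the cochlea and 37.1% ± 4.26 in the vestibule (SD, n = 3). Myo5b took 15.2% ± 2.09 and 4.67% ± 0.695, and Myo1c took 7.45% ± 1.41 and 15.6% ± 0.611. The 9 genes together summed to 636 to 831 CPM in the cochlea and 609 to 831 CPM in the vestibule, which overlap.

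**Figure D4:**
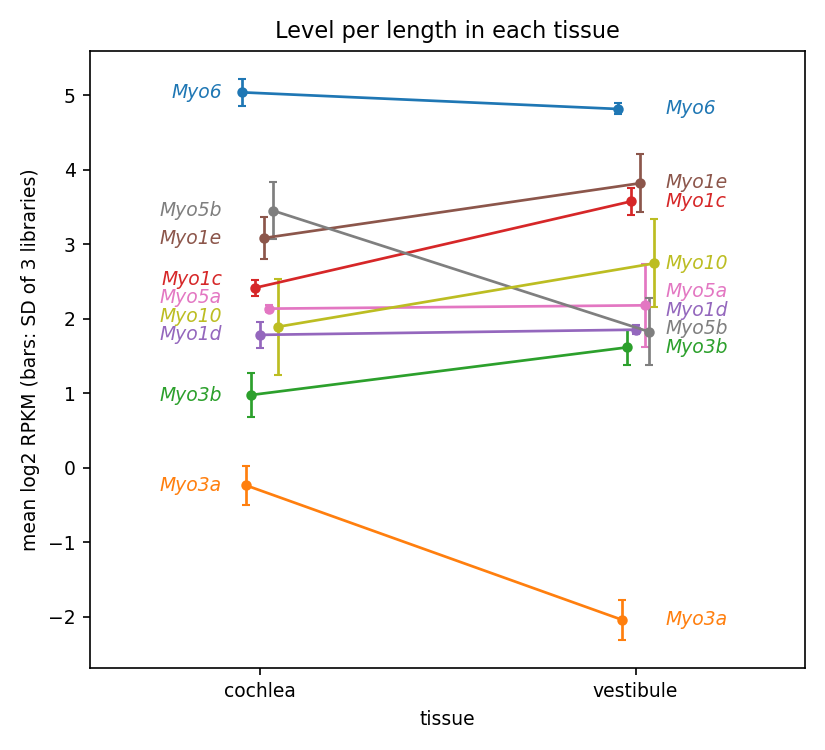
Mean log2 RPKM of the 9 myosins in the cochlea and the vestibule, with bars for the SD of 3 libraries and a line joining the values of each gene. Myo6 is highest (5.04 and 4.82) and Myo3a lowest (-0.24 and -2.04) in both tissues, and Myo5b falls from 3.45 to 1.83.

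The profile over the 6 libraries was compared for Myo6, Myo3a and Myo3b with genes of like level (mean log2 CPM within 1). The measure was the root mean square (RMS) difference of centred log2 CPM, scaled by the TMM factors. For Myo6 the nearest of 719 genes were Pik3r1 (RMS 0.0594), Fbln2 and Slc38a1, with a median RMS of 0.255 over the candidates. For Myo3a, with 2397 candidates and a median of 1.11, they were Dgki (RMS 0.0762), Gm10710 and Pkd2l1. For Myo3b, with 4573 candidates and a median of 0.430, they were Ulk4 (RMS 0.112), Fuz and Nectin4. The libraries of a gene pair share depth and tissue, so a small RMS is only a description.

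Of the other 16 unconventional myosins 13 were tested by edgeR's quasi-likelihood test. Against 15.8% of all tested genes, 6 of the 13 were called higher in the vestibule. Of these, Myo15b (log2 fold change 4.94) and Myo1g (2.98) met the filter on low counts only through the vestibule, so their calls and folds are descriptions. Also called were Myo1h (2.40) and Myo15 (2.07), which reached 1 CPM in all 6 libraries. Myo1g had 4 to 10 counts in the cochlear libraries. Myo15, the stereocilia motor lost in shaker 2 mice, had 4.58, 8.61 and 16.3 CPM in the cochlea and 77.7, 31.9 and 27.2 CPM in the vestibule (edgeR adjusted p = 0.0142). Myo15b had 6, 16 and 31 counts in the cochlear libraries and 1253, 453 and 248 in the vestibular ones. The call of Myo15 was lost without cochlear library 2, and that of Myo5c (1.63) without cochlear library 1 or 2 or vestibular library 1.

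Of 10 calmodulins and related light chains, Calm3 (-0.66) and Cib2 (-0.83), a calcium binding protein needed for hearing, were called by edgeR, both higher in the cochlea, and both calls were lost without cochlear library 1 or 2 or vestibular library 1 or 2. The heavy chains of non-muscle myosin II, Myh9, Myh10 and Myh14, had log2 fold changes of 0.98, -0.04 and -0.33 (edgeR adjusted p = 0.179, 0.946 and 0.465), and Myh9 was called without cochlear library 3. Over all 45 partner, light chain and myosin II genes, 6 were called higher in the vestibule and 7 in the cochlea, and 32 were not called. Of all tested genes the same test called 27.4%, 15.8% higher in the vestibule and 11.6% higher in the cochlea. The total of 13 calls fell to 8, 7, 6 and 7 without cochlear library 1, cochlear library 2, vestibular library 1 or vestibular library 2. Calls over all genes fell as well in these settings, from 4036 to 2978, 2799, 2749 and 2267. With library sizes alone in place of TMM the split was 9 higher in the vestibule and 4 higher in the cochlea.

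The libraries of a tissue differed among themselves by transcript length, and the longest transcripts of the 9 myosins ran from 4699 to 11702 bases. Deviations are given here for log2 CPM scaled by the TMM factors, unlike the plain CPM above. Genes over 8000 bases deviated from their tissue mean by a median log2 CPM of -0.20, 0.01 and 0.22 in cochlear libraries 1 to 3 and by 0.25, -0.01 and -0.22 in the vestibular ones. Genes up to 1000 bases deviated by 0.08, 0.12 and -0.18 and by -0.26, 0.02 and 0.24. All 9 myosins lay above their tissue mean in vestibular library 1, and 1 of the 9, Myo1c, did in cochlear library 1. In cochlear library 3 the number was 7, and in vestibular library 3 it was 3 (Myo6, Myo1d and Myo3b). Myo5a, the gene with the longest transcript, deviated on this TMM scale by -0.03, 0.11 and -0.08 in the cochlea, unlike genes of its length. In the vestibule it deviated by 0.48, 0.02 and -0.49. Myo10 deviated the most, by -0.75 in cochlear library 1 and by 0.50 and -0.55 in vestibular libraries 1 and 3. With offsets for GC content and length, an alternative chosen after the data had been seen, edgeR called 6 of the 9 myosins, with Myo10 (adjusted p = 0.0425), Myo1e (0.0219) and Myo3b (0.0477) added, all higher in the vestibule. That fit also called more genes in all, 33.1% of those it tested.

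**Figure D5:**
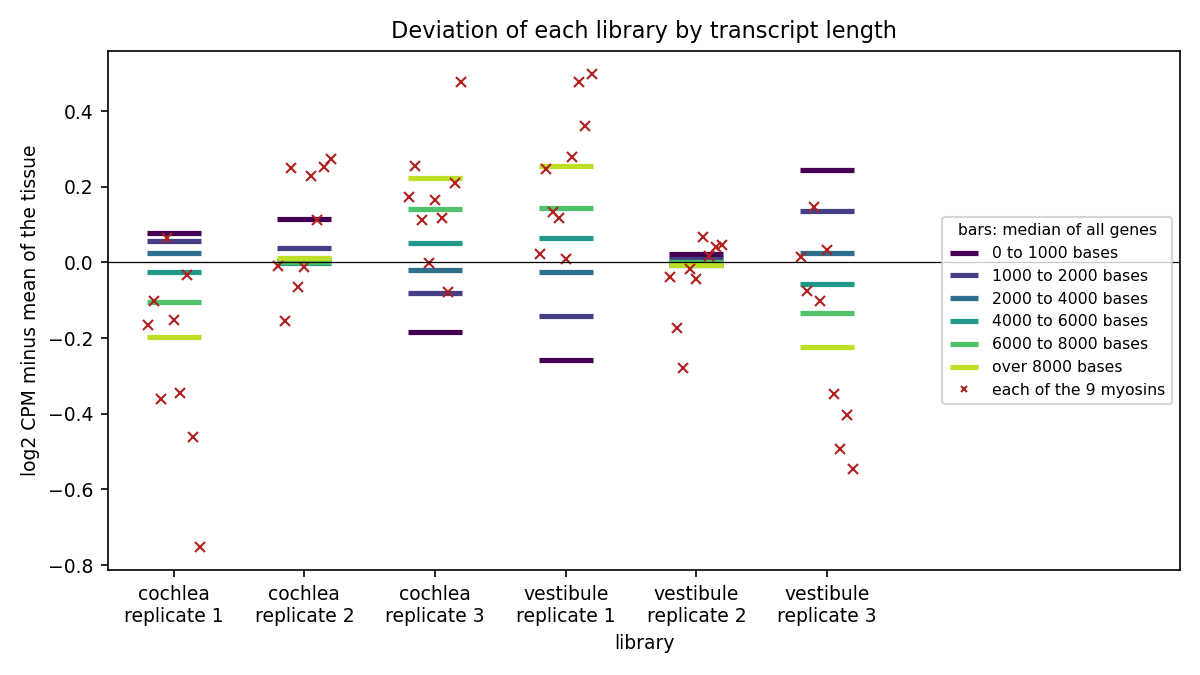
Deviation of log2 CPM, scaled by the TMM factors, from the mean of the tissue in each library. Bars mark the median of all tested genes in 6 classes of longest transcript length, and crosses mark the 9 myosins. Bars for genes over 8000 bases run from -0.22 in vestibular library 3 to 0.25 in vestibular library 1, and the crosses of vestibular library 1 all lie above 0.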

How the data were processed

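Polyadenylated RNA of 3 cochlear and 3 vestibular samples was sequenced as 100 bp paired ends after a stranded mRNA kit. The submitters' processing notes name TopHat2 2.1.0, SAMtools 0.1.18, HTSeq 0.5.4p5, edgeR 3.4.2 and GRCm38. The authors deposited raw counts per Ensembl gene, without normalization, and log2 RPKM values of the filtered genes. For 14172 of 14693 genes checked, the matrix and the counts kept 1 ratio within 1%. Summary lines, 18.5% to 20.6% of the listed counts, were left out. The strand setting of the counting is not given in the sources used here, so reads of overlapping genes on opposite strands may have been left uncounted as ambiguous.

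The tissues were compared with the quasi-likelihood test of edgeR 4.0.16 (R 4.3.3), TMM factors and no replicate block, over the genes reaching 1 CPM in no fewer than 3 libraries, at an FDR of 0.05. The procedure was tested on simulated data. DESeq2 1.42.0 and limma 3.58.1 were alternatives. Log2 CPM of the profiles and of the deviations by length used a prior count of 0.5 and the TMM factors. Coordinates of genes were taken from GENCODE vM21 (GRCm38). Other alternatives were scalings, filters, a replicate block and each library left out.

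The 9 myosins and all lists were chosen with earlier results of these data known. All 9 were named, and of each other list up to 4 called genes with the largest change and no overlap, plus Myo7a and Myo15. Rab3a, Myo5c and uncalled partners were named after their values were seen. The result of 1 gene among the other unconventional myosins is not reported here. Protein values of the study were not used here.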

Additional observations from a re-analysis of the deposited data

How the results depend on the processing

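Across 15 alternatives, 1 of them chosen after the data had been seen, Myo1c, Myo3a and Myo5b were called in each, in the direction given. The 9 myosins held 5 calls with library sizes alone, 5 with DESeq2 and 6 with GC and length offsets, where 27.2%, 30.6% and 33.1% of all genes were called, and 3 to 4 with a library left out. Myo1e was called in 6 of the 15, Myo3b in 2, Myo6 in 1 (DESeq2, adjusted p = 0.0445) and Myo10 in 1. The log2 fold change of Myo1d changed sign with library sizes alone, to 0.062, and without cochlear library 3, to 0.026, with a range from -0.13 over the libraries left out, and that of Myo5a changed to 0.11 with library sizes alone and ranged from -0.27 to 0.20, turning positive without cochlear library 2, vestibular library 2 or vestibular library 3. Neither was called in any. The number of all genes called, 4036, was 2267 to 4557 with a library left out, lowest without vestibular library 2, and 2754 of the calls were higher in the vestibule and 1251 higher in the cochlea with library sizes alone. With a replicate block 2618 genes were called, with 7 partner and light chain genes and 5 other unconventional myosins. Deviations of same-numbered libraries were negatively correlated (r -0.175, -0.260 and -0.475). That cannot decide whether the numbers pair the libraries, since the deviations also followed transcript length. Partner and light chain calls ranged from 6 to 17 and those of the other unconventional myosins from 5 to 10 with a library left out, where Myo1g fell below the filter without any of the vestibular libraries and so was not tested. All 10 ratios kept their sign with each library left out, and 7 to 9 of the 9 genes kept their place in the order of levels. The causes were not tested.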
